A study of Mus musculus with 9 samples.

Results

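The chemokines that draw lymphocytes into tissue and the macrophage inflammatory proteins were examined as a set of 7 genes of the 51912 in the deposited tables. The set was a fixed list, chosen with earlier results of these data known and matched by Ensembl identifier to mouse symbols. It holds 6 ligands, namely Ccl3, Ccl4, Ccl5, Cxcl9, Cxcl10 and Cxcl16, and the receptor Cxcr3. The RNA came from cells of the hippocampus of male C57BL/6 mice that express Cre recombinase from the Camk2a promoter, which is active in forebrain excitatory neurons. All mice received an adeno-associated virus vector of serotype 5 (rAAV5) with a Cre-dependent mCherry (rAAV5-DIO-mCherry), so that fluorescence, by which the cells were sorted, marks cells that carry both the vector and Cre. Doses of 2.88e+08, 2.88e+09 and 2.88e+10 vector genomes were used, the lowest serving as the control, and cells were taken 3 weeks later. No uninjected animals were among the samples analysed here.

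The 9 libraries, titled S1001 to S1009, were described as 3 groups of 3, but the label of each library gives no dose. The tables carry the letters H (S1001 to S1003), M (S1004 to S1006) and L (S1007 to S1009), which the labels do not explain. The letters are used here as names, H1 to H3, M1 to M3 and L1 to L3. No library was assigned to a dose, no test between doses was made, and values are given per library. Whether the 3 libraries of a letter came from separate animals cannot be checked from the tables, although the study describes them as biological replicates.

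Chemokines are small secreted proteins that guide leukocytes along concentration gradients by binding receptors coupled to G proteins. CCL3 and CCL4 are the macrophage inflammatory proteins 1-alpha and 1-beta, and CCL3 binds CCR1. CCL5 also binds CCR1, while CXCL9 and CXCL10 are induced by interferon and attract activated T cells and natural killer (NK) cells through CXCR3. CXCL16 is made as a membrane-bound protein, released by the protease ADAM10, and binds CXCR6. In brain tissue, activated microglia and macrophages are a known source of CCL3 and CCL4.

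Total gene counts ranged from 12136830 to 19151596 per library, and a count of 0 allows up to 0.158 to 0.246 CPM (the count scaled to library size, here with TMM factors), for counting error only. The 3 H libraries were far closer to each other than any other libraries were. A chi-square per degree of freedom over genes was 2.675 to 5.145 between H libraries, 24.3 to 33.6 between M libraries and 27.2 to 38.9 between L libraries, where sampling noise alone gives about 1. Markers of the sorted cell type were present throughout, with Slc17a7, the vesicular glutamate transporter of excitatory neurons, at 184 to 586 CPM. The 13 microglia markers summed to 14054.8, 12778.6 and 13335.7 CPM in H1 to H3, to 5321, 4113 and 4204 CPM in M1 to M3 and to 70.9, 116.5 and 24.4 CPM in L1 to L3. Transcripts typical of cells other than the sorted neurons were thus abundant in the H and M libraries.

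All 6 ligands were highest in the H libraries, and Cxcr3 was highest in the M libraries. All 7 genes had a mean of at least 1 CPM and were spread at least 2-fold over the libraries, against 26.4% of the 14787 genes with such a mean. Because the list was chosen with earlier results of these data known, the shares given here are description and not a test. Ccl5 and Cxcl9 reached that mean only through the H libraries. Spread is the log2(CPM + 1) value of the second highest library minus that of the second lowest. At least 16-fold was reached by 6 of the 7, against 3.25% of genes, and the median spread (log2) was 6.71 for the 7 genes and 0.66 for all 14787. H1 to H3 were the 3 highest libraries for 6 of the 7, an order that 12.7% of genes had. M1 to M3 were the 3 highest for Cxcr3, as for 4.72% of genes, and L1 to L3 the 3 lowest for 5 of the 7, as for 13.6%. Every H library above every M library and every M library above every L library was the order of 4 of the 7, namely Ccl3, Ccl4, Cxcl10 and Cxcl16, and of 5.93% of genes. With H2 and H3 left out together, 5 of the 7 stayed at least 2-fold apart. The exceptions were Ccl5 and Cxcl9, at 0.98 and 0.37 on the log2 scale, because H1 was then their only high library and the measure omits the highest library. In these bulk samples, fewer cells of a type and less RNA per cell cannot be told apart.

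**Figure D1:**
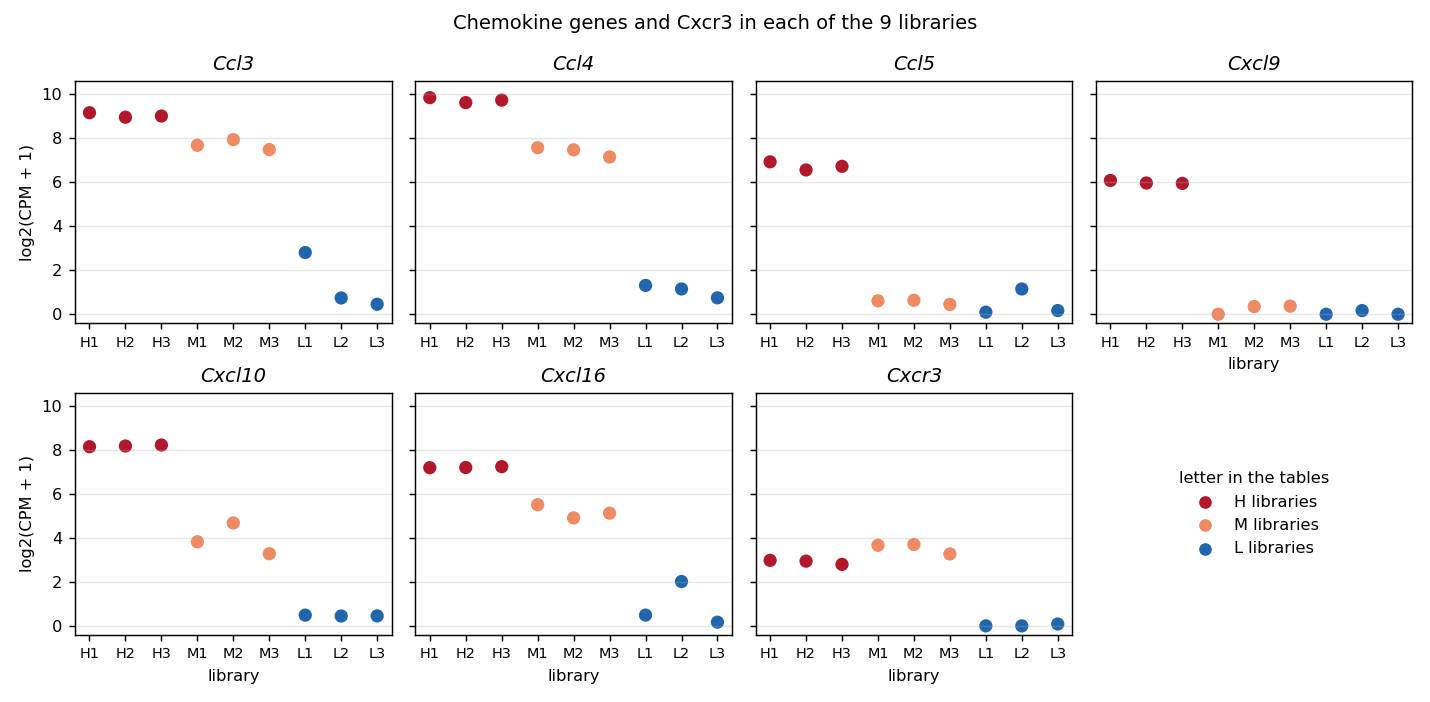
Each panel shows log2(CPM + 1) of a gene (vertical axis) in the 9 libraries (horizontal axis), 1 point per library, coloured by the letter of its table. The H points lie above all others for the 6 ligands, the M points lie highest for Cxcr3, and Ccl5 and Cxcl9 are near 0 in all M and L libraries.

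Ccl3 and Ccl4 were the most abundant of the set. Ccl3 (ENSMUSG00000000982, chromosome 11, 83647844 to 83649355, minus strand, build mm10) measured 571, 495 and 514 CPM in H1 to H3, 204, 244 and 178 CPM in M1 to M3 and 5.99, 0.670 and 0.370 CPM in L1 to L3. Ccl4 (ENSMUSG00000018930, chromosome 11, 83662584 to 83664683, plus strand) measured 918, 785 and 850 CPM in H1 to H3, 189, 177 and 141 CPM in M1 to M3 and 1.48, 1.22 and 0.678 CPM in L1 to L3. No library of a letter overlapped with those of another letter for either gene. The lowest H library exceeded the highest M library 2.03-fold for Ccl3 and 4.15-fold for Ccl4, whereas values within M differed at most 1.37-fold and 1.34-fold. Within the H letter they differed at most 1.15-fold and 1.17-fold, but the H libraries were so close to each other over all genes that their range may hold little biological spread.

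The Ccl3 level in L1 stood out among the L libraries. It rested on 89 counts in L1, against 11 in L2 and 6 in L3, while Ccl4 had 22, 20 and 11 counts there. The genes lie 13.2 kb apart with no protein-coding gene between them, pointing away from each other. In FPKM (fragment counts scaled for gene length and library size, as the authors deposited it), which allows levels of different genes to be compared, the ratio of Ccl4 to Ccl3 was 1.87, 1.84 and 1.92 in H1 to H3. It was 1.08, 0.84 and 0.92 in M1 to M3, so the balance of the pair differed between H and M libraries without overlap. In the L libraries it was 0.287, 2.11 and 2.13, on the low counts given.

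Ccl5, which attracts T cells and monocytes, was nearly confined to the H libraries. It (ENSMUSG00000035042, chromosome 11, 83525778 to 83530518, minus strand) measured 121, 93.25 and 105 CPM in H1 to H3, 0.526, 0.552 and 0.363 CPM in M1 to M3 and 0.0673, 1.22 and 0.123 CPM in L1 to L3. The M libraries held 10, 8 and 5 counts and the L libraries 1, 20 and 2 counts, so M and L libraries overlapped and L2 was the highest of these 6. The lowest H library was 76.5-fold above L2. Ccl5 lies 117 kb from Ccl3 in the same chemokine cluster, with Ccl9 and Ccl6 among the 3 coding genes between them. Ccl6 and Ccl9, CC ligands named after their values were seen, were also highest in the H libraries, but at 21.03 to 43.95 and 37.99 to 65.8 CPM in the M libraries they were not near 0 there. In FPKM the ratio of Ccl5 to Ccl4 was 0.0817 to 0.0904 in the H libraries and 0.00178 to 0.00214 in the M libraries.

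Cxcl9 and Cxcl10 are neighbouring genes with a shared receptor, but their values in the M libraries differed. Cxcl9 (ENSMUSG00000029417, chromosome 5, 92321347 to 92328079, minus strand) measured 66.7, 61.5 and 60.7 CPM in H1 to H3. Its M libraries held 0, 4 and 4 counts and its L libraries 0, 2 and 0 counts, at most 0.291 CPM. Cxcl10 (ENSMUSG00000034855, chromosome 5, 92346638 to 92348889, minus strand) measured 282, 288 and 297 CPM in H1 to H3, 13.2, 24.6 and 8.72 CPM in M1 to M3 and 0.404, 0.366 and 0.370 CPM in L1 to L3, where each library held 6 counts. The lowest H library was 11.45-fold above M2, and M values differed among themselves 2.82-fold, the widest range within the M letter among the 5 ligands detected in every M library. In FPKM the ratio of Cxcl10 to Cxcl9 was 5.66, 6.28 and 6.56 in H1 to H3, against 114 in M2 and 39.7 in M3, where Cxcl9 rested on 4 counts each. Cxcl11, the remaining CXCR3 ligand gene, 10.7 kb from Cxcl10 and named after its values were seen, held 149, 157 and 170 counts in H1 to H3, none in M1 to M3 and 1, 0 and 0 in L1 to L3.

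The RefSeq promoter table (build GRCm38.p6) held 4 of the 7 genes, Ccl3, Cxcl9, Cxcl10 and Cxcr3. The 250 bases upstream of the start site were searched on both strands for GGGA and TTCC with any 2 bases between (an NF-kappaB type motif), GAAA and GAAA with any 2 bases between (the type of the interferon-stimulated response element, ISRE) and TTCNNNGAA (a STAT type motif). Of all 32851 promoter windows, 1.21%, 2.98% and 7.02% held these motifs, in the same order. Cxcl10 held an ISRE type match at positions -213 to -204 from its start and an NF-kappaB type match at -159 to -150, neither overlapping the other. The windows of Ccl3, Cxcl9 and Cxcr3 held none of these letter strings. The Cxcl10 and Cxcl9 windows are shown because these neighbours had unlike values in the M libraries, with the 2 matches in capitals. They span chr5:92348890-92349139 and chr5:92328080-92328329 on the minus strand and are written 5′ to 3′.
Cxcl10: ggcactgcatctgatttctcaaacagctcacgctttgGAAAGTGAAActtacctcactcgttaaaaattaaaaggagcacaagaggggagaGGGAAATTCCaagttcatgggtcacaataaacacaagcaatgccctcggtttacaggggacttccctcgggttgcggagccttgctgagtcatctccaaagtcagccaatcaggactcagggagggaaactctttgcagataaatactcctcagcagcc
Cxcl9: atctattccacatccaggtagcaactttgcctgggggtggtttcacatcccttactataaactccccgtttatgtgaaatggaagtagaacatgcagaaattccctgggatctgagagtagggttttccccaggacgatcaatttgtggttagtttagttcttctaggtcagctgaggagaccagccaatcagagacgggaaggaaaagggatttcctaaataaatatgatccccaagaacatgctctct

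Cxcl16, the membrane-bound ligand of CXCR6, followed the order of Ccl3 and Ccl4. It (ENSMUSG00000018920, chromosome 11, 70453983 to 70459984, minus strand) measured 145, 146 and 149.9 CPM in H1 to H3, 44.5, 29.0 and 33.9 CPM in M1 to M3 and 0.404, 3.05 and 0.123 CPM in L1 to L3. The lowest H library was 3.26-fold above M1, and the letters did not overlap. L2, with 50 counts, stood above L1 and L3, with 6 and 2. Of its exon bases, 18.3% are shared with Zmynd15 on the opposite strand, and 5.91% of those of Cxcl10 with Art3, also opposite. Zmynd15 measured 0 to 3.85 CPM and Art3 1.86 to 5.92 CPM, with the strand setting of the counting not given in the sources used here.

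Cxcr3, known mainly from activated T and NK cells and also described on mouse microglia, had another order than its ligands. It (ENSMUSG00000050232, chromosome X, 101731535 to 101734269, minus strand) measured 6.88, 6.68 and 5.95 CPM in H1 to H3, 11.7, 12 and 8.65 CPM in M1 to M3 and 0, 0 and 0.0616 CPM in L1 to L3. These rest on 84, 87 and 78 counts in the H libraries, 222, 174 and 119 in the M libraries and 0, 0 and 1 in the L libraries. The lowest M library was 1.26-fold above the highest H library, a gap smaller than the 1.39-fold range within M.

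Of the 22 T and NK cell markers, 8 had a mean of at least 1 CPM. H1 to H3 were the 3 highest libraries for 5 of these 8 and M1 to M3 for 1, against 12.7% and 4.72% of all genes. The members of the list that follow were named after their values were seen, apart from Nkg7, Cd4 and Lck. Cd3g, Cd8a, Nkg7 and Trbc2 reached the minimum mean only through the H libraries, so their order follows from the filter. Cd3d and Cd3e, which encode chains of the CD3 complex, had 28, 32 and 32 and 26, 24 and 24 counts in H1 to H3 and no count in any M or L library. Of the T cell receptor constant regions, Trac had 20, 13 and 8 counts and Trbc2 7, 3 and 7 in M1 to M3. In H1 to H3 these 2 genes had 45, 65 and 51 and 50, 40 and 51 counts. Trbc1 had 14, 26 and 15 counts in H1 to H3 and 0 in the M and L libraries. Trac also had 13, 53 and 32 counts in L1 to L3. The kinase gene Lck had 89, 71 and 79 counts in H1 to H3, 59, 54 and 46 in M1 to M3 and 101, 80 and 46 in L1 to L3, so it did not separate the letters. Gzmk, a granzyme gene, had 41, 35 and 38 counts in H1 to H3, 38, 40 and 35 in M1 to M3 and 25, 40 and 19 in L1 to L3. The costimulatory receptor gene Cd28 had 5, 1 and 0 counts in H1 to H3, 7, 7 and 4 in M1 to M3 and 0, 0 and 1 in L1 to L3. Nkg7, a granule protein of cytotoxic lymphocytes, measured 9.18, 9.91 and 9.46 CPM in H1 to H3 and 0 in the other 6. Cd4, a T cell coreceptor also found on macrophages, did have its highest values in the M libraries, at 12.4, 10.5 and 13.1 CPM in H1 to H3, 20.5, 23.9 and 13.6 CPM in M1 to M3 and 0 in the L libraries. All 7 border macrophage markers were highest in the M libraries too. They summed to 364, 374.5 and 376 CPM in H1 to H3, 1884, 1419 and 1647 CPM in M1 to M3 and 2.69, 15.2 and 2.03 CPM in L1 to L3. Per 1000 CPM of that sum, Cxcr3 stood at 18.9, 17.8 and 15.8 CPM in H1 to H3 and 6.20, 8.46 and 5.25 CPM in M1 to M3. Whether border macrophages or other cells supplied Cxcr3 was not tested.

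On the per-length FPKM scale, the order of levels in every H library was Ccl4, Ccl3, then Cxcl10 and Ccl5, then Cxcl16, Cxcl9 and Cxcr3. Ccl4 stood at 1192 to 1399 FPKM and Ccl3 at 648 to 749 FPKM in the H libraries. Cxcl10, at 126 to 132 FPKM, and Ccl5, at 97.4 to 126 FPKM, were close, with the highest Ccl5 value above the lowest Cxcl10 value. Cxcl16 followed at 48.3 to 49.7 FPKM, Cxcl9 at 20.1 to 22.2 FPKM and Cxcr3 at 3.44 to 4.00 FPKM. In the M libraries, Ccl3 at 238 to 333 FPKM and Ccl4 at 219 to 284 FPKM overlapped. Below them stood Cxcl16 at 10.1 to 14.6 FPKM, Cxcl10 at 3.97 to 11.4 FPKM and Cxcr3 at 5.12 to 7.25 FPKM. The range of Cxcl10 overlapped those of both Cxcl16 and Cxcr3, and in M2 Cxcl10 was above Cxcl16, at 11.4 against 10.1 FPKM. Ccl5 and Cxcl9 were at most 0.60 and 0.10 FPKM in the M libraries. In the L libraries, no member exceeded 7.56 FPKM, the value of Ccl3 in L1.

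The library profiles of the 7 genes held 2 close pairs. Likeness was measured as the root mean square difference of log2(CPM + 1) over the 9 libraries, after centring each gene on its own mean. Genes were not scaled, so for genes near 0 outside the H libraries the measure also depends on their level in H. The closest profiles were those of Ccl5 and Cxcl9, at 0.33, followed by Ccl3 and Ccl4, at 0.69. Cxcl10 and Cxcl16 were 1.11 apart, Ccl4 and Cxcl16 1.137, and Cxcl16 stood 1.23 from Ccl3. Cxcl9 and Cxcl10, which share a receptor and a locus, were 1.38 apart, and Ccl5 stood 2.79 from Ccl3. Cxcr3 was 2.31 from Cxcl10 and 2.62 from Cxcl9, its ligands, and nearest to Cxcl16, at 1.56. These values describe 9 libraries that share their letters' composition and are not a test.

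**Figure D2:**
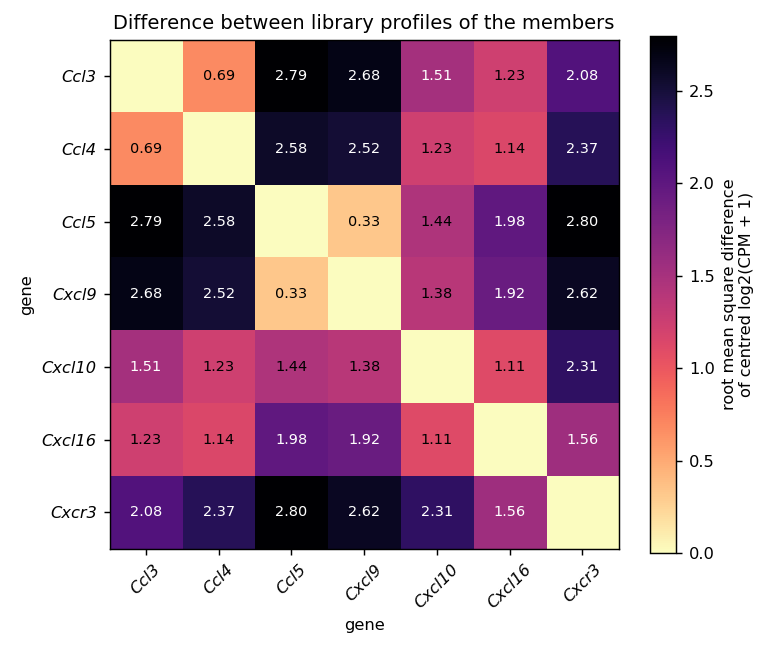
The matrix gives the root mean square difference of centred log2(CPM + 1) over the 9 libraries for each pair of the 7 genes (rows and columns, colour scale and printed values). The smallest values are 0.33 for Ccl5 and Cxcl9 and 0.69 for Ccl3 and Ccl4.

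Among the other 14780 genes of at least 1 CPM, the 3 nearest profiles were found for each gene. Nearest to Ccl3 were Pld4, an endolysosomal nuclease of microglia (0.53), the stress-induced transcription factor Atf3 (0.59) and the leukocyte tetraspanin Cd53 (0.62). Nearest to Ccl4 were the cytokine Il1b (0.44), Ly86, a partner of the Toll-like receptor homologue RP105 (0.46), and the chemerin receptor Ccrl2 (0.52). For Ccl5 they were the antibody genes Ighv1-9 (0.33) and Ighg3 (0.34) and the class II accessory chain H2-Oa (0.355). For Cxcl9 they were Ly6c2, a surface protein of monocytes and some lymphocytes (0.15), the B cell chemokine Cxcl13 (0.16) and the light chain segment Igkv17-127 (0.22). Antibody segments resemble each other in sequence, which leaves their separate counts uncertain. Cxcl10 lay nearest to the adhesion molecule Icam1 (0.40), the cytokine Il1a (0.48) and the secreted phosphoprotein Spp1 (0.56). Cxcl16 lay nearest to Syngr2 (0.305), the microglial purinergic receptor P2ry13 (0.33) and the phagosomal metal transporter Slc11a1 (0.36). Cxcr3 lay nearest to Ggta1, a galactosyltransferase (0.185), the phospholipid-binding Anxa5 (0.19) and the lipid droplet protein Plin3 (0.21).

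Levels were then set against the summed microglia markers of the same library. Per 1000 CPM of that sum, Ccl3 stood at 40.6, 38.8 and 38.55 CPM in H1 to H3 and 38.4, 59.4 and 42.4 CPM in M1 to M3, so that H and M libraries overlapped. Ccl4 stood at 65.3, 61.4 and 63.7 CPM in H1 to H3 and 35.5, 43.0 and 33.5 CPM in M1 to M3, and Cxcl16 at 10.3 to 11.4 CPM in H and 7.06 to 8.37 CPM in M libraries. On this scale Ccl4 and Cxcl16 were higher in each H library. Cxcl10 stood at 20.1, 22.5 and 22.3 CPM in H1 to H3 and at 2.47, 5.99 and 2.08 CPM in M1 to M3. Ccl5 ranged from 7.30 to 8.59 CPM in the H libraries and from 0.0864 to 0.134 CPM in the M libraries, and Cxcl9 from 4.55 to 4.81 and from 0 to 0.0692 CPM. Cxcr3 ranged from 0.446 to 0.523 CPM in the H libraries and from 2.06 to 2.92 CPM in the M libraries.

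In the L libraries these ratios were spread widely, as for Ccl3 at 84.4, 5.75 and 15.15 CPM per 1000 in L1 to L3, on few counts. The sum depends on few genes. The complement chains C1qa, C1qb and C1qc made up 68.3% to 71.8% of it in the H libraries, 80.8% to 84.0% in the M libraries and 32.9% to 51.4% in the L libraries. Ratios to the other 10 markers were added after seeing the data. Ccl3 then stood at 144, 122 and 129 CPM per 1000 in H1 to H3 and 238, 309.7 and 265 CPM in M1 to M3, so each M library was higher. Ccl4 stood at 231.5, 194 and 214 CPM per 1000 in H1 to H3 and 220.1, 224 and 209 CPM in M1 to M3, and H and M libraries overlapped. Cxcl16, at 36.0 to 37.7 CPM in H and 36.8 to 51.8 CPM in M libraries, overlapped too. Ccl5, Cxcl9 and Cxcl10 kept every H library above every M library, at 23.01 to 30.4, 15.2 to 16.8 and 71.05 to 74.8 CPM in H and at most 0.6997, 0.432 and 31.2 CPM in M libraries. Set against the border macrophage sum instead, each of the 6 ligands was higher in every H library than in any M library, as Ccl3 at 1569, 1322 and 1367 CPM per 1000 in H1 to H3 and 108, 172 and 108 CPM in M1 to M3. This was bound to follow, because each ligand was higher and the border macrophage sum lower in every H library than in any M library. The order of H and M libraries for Ccl3, Ccl4 and Cxcl16 thus changed with the microglia markers chosen. Tmem119, a marker largely restricted to microglia and named after its values were seen, measured 224 to 237.5 CPM in the H libraries, 1.84, 4.00 and 2.47 CPM in M1 to M3 and 3.50, 2.44 and 0.246 CPM in L1 to L3. C1qb, a complement chain of microglia and other macrophages, measured 3326 to 3925 CPM in the H libraries, 1615, 1166 and 1288 CPM in M1 to M3 and 2.90 to 23.6 CPM in the L libraries. Which cells carried the chemokine transcripts was not tested.

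**Figure D3:**
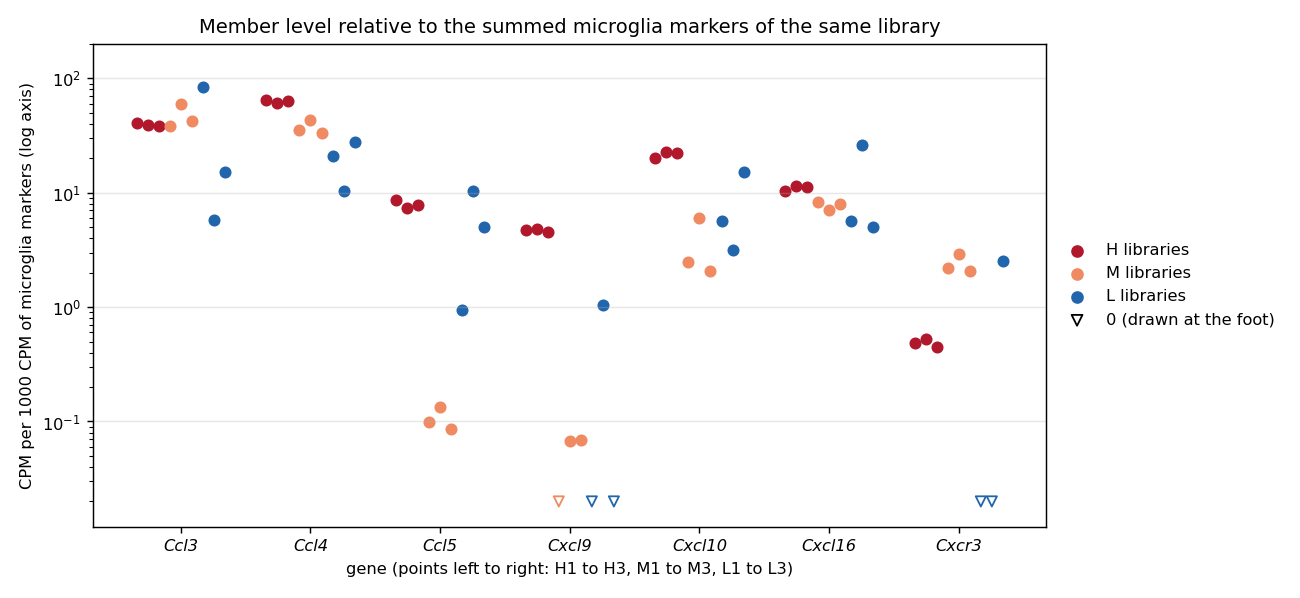
CPM of each gene per 1000 CPM of the 13 summed microglia markers of the same library (vertical log axis), 1 point per library in the order H1 to H3, M1 to M3, L1 to L3; open triangles at the foot mark 0. H and M points overlap for Ccl3, lie far apart for Ccl5 and Cxcl9, and Cxcr3 is higher in M than in H libraries.

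Of the 6 further receptors of these ligands, 5 had a mean of at least 1 CPM and 4 of them differed at least 2-fold, beside 26.4% of all genes. Cxcr6 reached the minimum mean only through the H libraries, so the filter favours its wide spread and this share is description only. Ccr1, which binds CCL3 and CCL5, measured 10.3, 10.7 and 8.31 CPM in H1 to H3 and 14.7, 8.48 and 20.4 CPM in M1 to M3, with 0 in all L libraries. H and M libraries overlapped for Ccr1. Cxcr6, the receptor of CXCL16, had 54, 59 and 63 counts in H1 to H3, 0, 2 and 1 in M1 to M3 and 3, 0 and 0 in L1 to L3. The atypical receptors Ackr1 and Ackr2, which bind chemokines without G protein signalling, ranged from 10.9 to 21.9 CPM and from 1.10 to 7.09 CPM over all libraries. Ccr3 did not exceed 8 counts in any library.

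Of the proteases that process the ligands, Adam10 ranged only from 73.7 to 146 CPM, with M3 highest. Adam17, a related sheddase, measured 33.3, 33.6 and 35.2 CPM in H1 to H3, 15.95, 15.6 and 15.05 CPM in M1 to M3 and 6.19, 5.73 and 7.09 CPM in L1 to L3. Dpp4, which trims the amino end of CXCL10, ranged from 0 to 1.75 CPM.

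Over all 54 other chemokine ligands and receptors, 30 had a mean of at least 1 CPM and 25 of these differed at least 2-fold, beside 26.4% of all genes. H1 to H3 were the 3 highest libraries for 13 of the 30 and M1 to M3 for 6, beside 12.7% and 4.72% of all genes. Some of the 13, such as Cxcl11, Cxcl13 and Ccr7, reached the minimum mean only through the H libraries. For such genes the order follows from the filter. The 6 with M highest were all ligands, namely Ccl2, Ccl7, Ccl24, Cxcl1, Cxcl2 and Pf4, named after their values were seen where the naming rule did not choose them. Ccl7, which attracts monocytes, ranged from 191 to 211 CPM in the H libraries, from 669 to 848 CPM in the M libraries and from 0.924 to 5.24 CPM in the L libraries. Pf4, a CXC chemokine of platelets that border macrophages also express, measured 58.5, 49.2 and 53.1 CPM in H1 to H3 and 421, 243 and 309 CPM in M1 to M3. Cx3cl1, a neuronal chemokine, was abundant in every library, at 889 to 947 CPM in H, 467 to 746 CPM in M and 1111 to 1775 CPM in L libraries. Cx3cr1, its microglial receptor, measured 467, 471 and 468 CPM in H1 to H3 and 74.5, 77.3 and 44.1 CPM in M1 to M3.

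**Figure D4:**
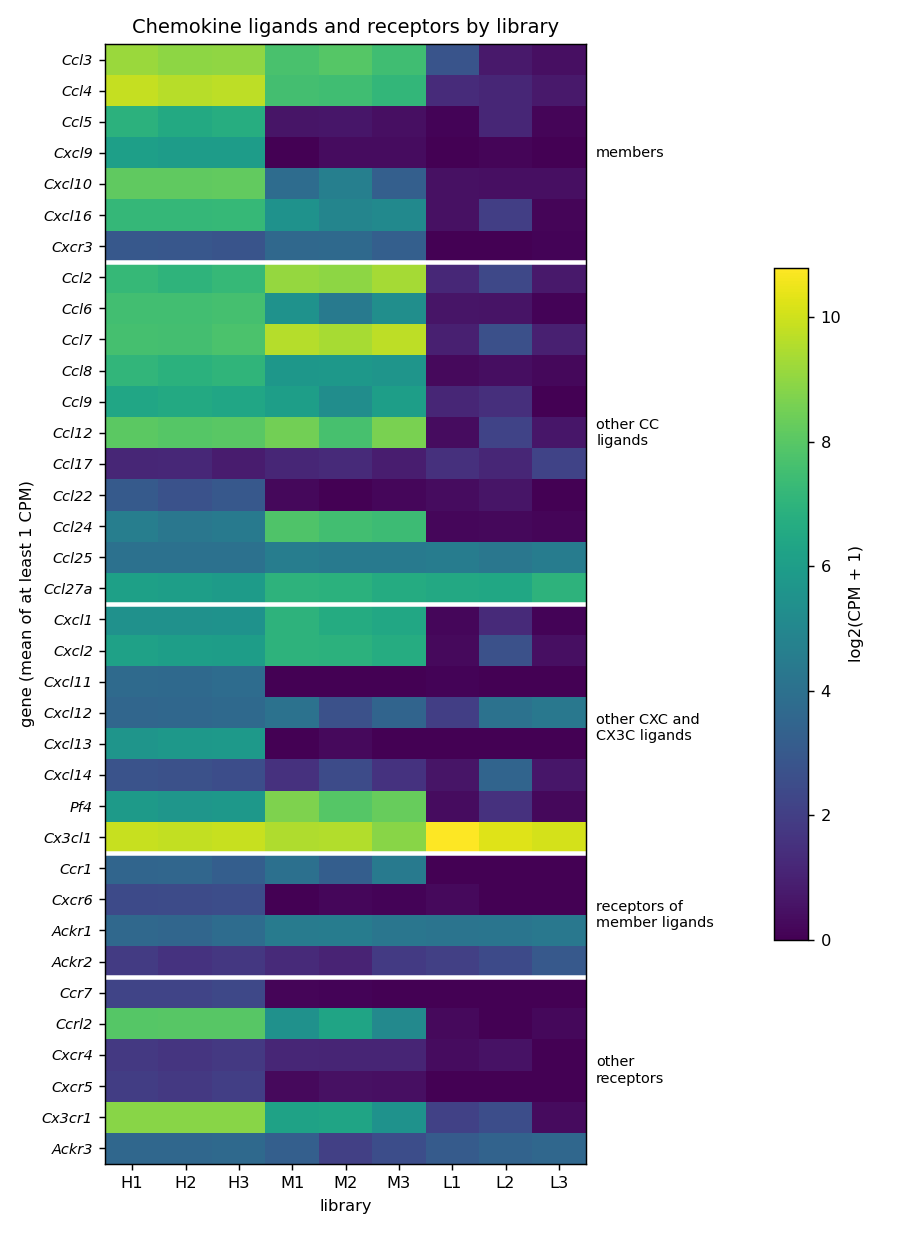
Heat map of log2(CPM + 1) for the 7 members and other chemokine ligands and receptors with a mean of at least 1 CPM (rows, white lines between classes) in the 9 libraries (columns). The H columns are brightest for the 6 ligands of the set, the M columns for Ccl2, Ccl7, Ccl24 and Pf4, and Cx3cl1 is bright throughout.

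Genes of the interferon and NF-kappaB pathways, which are known to induce these ligands, were counted by the same measures. Of 21 listed genes, 19 had a mean of at least 1 CPM, 16 of these differed at least 2-fold, beside 26.4% of all genes, and H1 to H3 were the 3 highest for 17 of the 19, beside 12.7%. Tnf, an inflammatory cytokine, measured 315, 304 and 324 CPM in H1 to H3, 48.9, 45.65 and 34.6 CPM in M1 to M3 and 1.55, 1.46 and 0.0616 CPM in L1 to L3. Irf8, a transcription factor of myeloid cells, ranged from 178 to 192 CPM in H, from 38.5 to 76.7 CPM in M and from 0.308 to 2.15 CPM in L libraries. Nfkbia, which encodes an NF-kappaB inhibitor, ranged from 546 to 617 CPM in H, from 241 to 329 CPM in M and from 35.1 to 42.9 CPM in L libraries. Jak1, a kinase of interferon receptors, ranged only from 185 to 264 CPM. Ifng and Ifnb1, the interferon-gamma and interferon-beta genes, were named after their values were seen and had low counts. Ifng had 16, 18 and 26 counts in H1 to H3, 0 in the M libraries and 2, 0 and 0 in L1 to L3. Ifnb1 had 8, 14 and 16 counts in H1 to H3, 0, 0 and 1 in M1 to M3 and 0 in the L libraries.

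Summed markers of several other cell types were also highest in the H libraries. The B and plasma cell list summed to 1103, 1183 and 1154 CPM in H1 to H3, 3.90, 6.07 and 4.36 CPM in M1 to M3 and 0.269, 1.71 and 0.308 CPM in L1 to L3, and most of it was Jchain, the antibody joining chain, at 1046 to 1131 CPM in the H libraries. The 22 T and NK cell markers summed to 65.1 to 67.2 CPM in H, 21.5 to 32.1 CPM in M and 6.04 to 11.03 CPM in L libraries, with 1 to 3, 11 to 14 and 18 or 19 of them at 0. Most of the sum in M1 to M3 was Cd4, also found on macrophages, at 20.5, 23.9 and 13.6 CPM. Lck, which did not separate the letters, held 6.8, 4.9 and 2.8 CPM of the sum in L1 to L3. The order of these sums is thus not that of the list as a whole. The 6 neutrophil and monocyte markers summed to 50.6 to 54.9 CPM in the H libraries, nearly all of it Ly6c2, and to 0 to 0.509 CPM elsewhere, and the neutrophil genes S100a8 and S100a9, named after their values were seen, had at most 1 count in any library. Astrocyte markers summed to 94.85 to 100.4 CPM in H, 46.6 to 104 CPM in M and 15.5 to 58.7 CPM in L libraries, and M2 stood above all H libraries. Endothelial markers summed to 0 to 3.23 CPM, with Pecam1 and Flt1 at most 2.38 and 1.61 CPM. The pyramidal neuron list summed to 4313 to 4994 CPM in H, 2875 to 3844 CPM in M and 5439 to 8327 CPM in L libraries. The part of these cell types in the chemokine values was not tested.

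**Figure D5:**
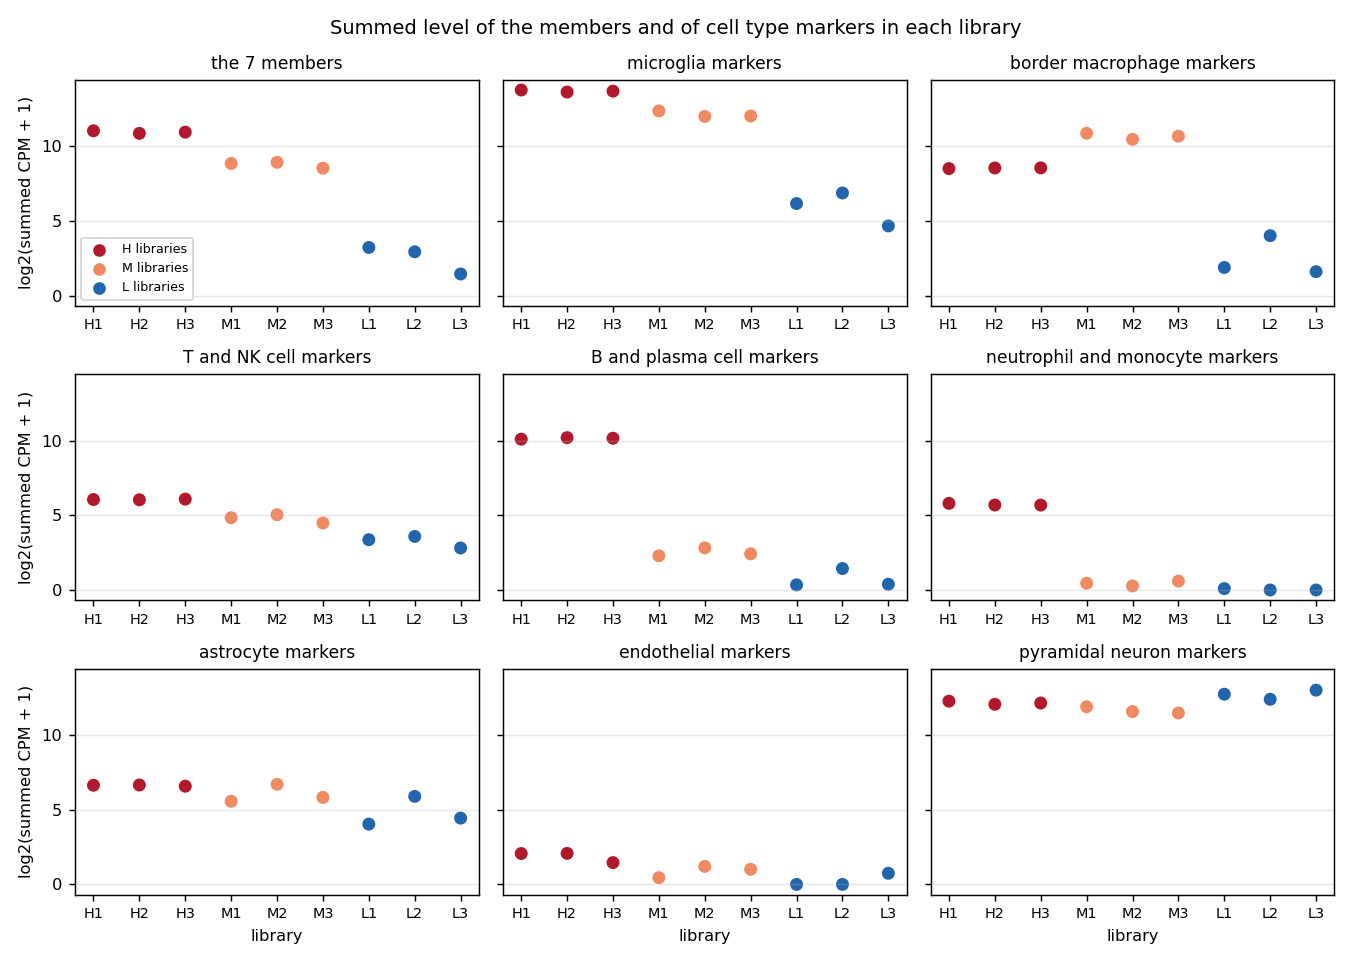
Each panel gives log2(summed CPM + 1) of a list (vertical axis) in the 9 libraries (horizontal axis), 1 point per library, coloured by letter. The 7 members and the microglia markers are highest in H and lowest in L libraries, border macrophage markers are highest in M libraries, and B and plasma cell markers are high in the H libraries alone.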

How the data were processed

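RNA of sorted hippocampal cells was profiled in 9 libraries. Tools named in the submitters' processing notes were HTSeq 0.6.1, HISAT2 2.0.1, Trimmomatic 0.30 and bcl2fastq 2.17.1.14, with build mm10. Parameters, strand setting and annotation: not given in the sources used here. Each of 51912 genes has a raw count and an FPKM value, which the authors deposited per the file headers. FPKM was used only for ratios and order between genes, and over 2137 genes with at least 1000 counts in every library its ratio to the count matched the library totals within 0.424%. Symbols came from GENCODE M21, which held 99.46% of the identifiers, and promoter sequences from RefSeq.

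CPM values used TMM scaling (edgeR 4.0.16, R 4.3.3), with a pseudocount of 1 CPM on the log2 scale and a minimum mean of 1 CPM for counts of genes. Spread ran between the second extremes of the 9 libraries, and 2-fold was the threshold. Libraries were compared in pairs by a chi-square test of the genes holding 10 or more counts in the pair. Named genes were the members, their receptors and proteases, the 2 most abundant and 2 most widely spread of every list, and the 3 nearest profiles. The labels give 0 of 9 libraries a dose, so no test between doses was made. Alternatives were DESeq2 1.42.0 size factors, scaling by total counts, pseudocounts of 0.5 and 5 CPM, other minimum means, the full range and leaving out libraries. A microglia sum without the C1q genes was added after seeing the data. Calculations used Python 3.11.15, numpy 2.4.6 and pandas 2.3.3, and were tested on simulated data. The members and lists were chosen with earlier results of these data known. Some genes of the lists are counted but not reported here by name.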

Additional observations from a re-analysis of the deposited data

How the results depend on the processing

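The count of 7 members at least 2-fold apart stayed at 7 without each library in turn and was 6 with a minimum mean of 10 CPM, which Cxcr3 does not reach, and the order with H1 to H3 highest held for 6 members under total-count scaling and DESeq2 size factors. Leaving out H2 and H3 together, chosen after seeing the data, gave 5 members, with Ccl5 at 0.98 and Cxcl9 at 0.37 on the log2 scale, against 6.56 and 5.97. Without L2 or without L3 the spread of Ccl3 was 6.20, against 8.27, and without L1 or without L3 that of Cxcl16 was 5.18, against 6.71. Of the other chemokine ligands and receptors, 25 were at least 2-fold apart, 22 to 24 when each library was left out, 17 with a pseudocount of 5 CPM and 15 with a minimum mean of 10 CPM, which tests fewer genes. The share of all genes, 26.4%, was 21.6% to 24.8% when each library was left out, 13.2% with a pseudocount of 5 CPM, 12.3% with no minimum mean and 52.6% with the full range. The cause of these shifts was not tested beyond the construction of each measure. No paired analysis was possible because no library has a group. Values in the L libraries, and Ccl5 and Cxcl9 in the M libraries, rest on few counts.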

Other observations

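Some further chemokine genes, chosen after their values were seen, are given by their counts, without a claim about a common role. Cxcl13, which attracts B cells, held 583, 686 and 724 counts in H1 to H3, 0, 3 and 0 in M1 to M3 and 0 in the L libraries. Its receptor gene Cxcr5 held 35, 32 and 39 counts in H1 to H3, 4, 6 and 5 in M1 to M3 and 0 in the L libraries. Ccr7, which guides lymphocytes and dendritic cells to lymph nodes, held 44, 47 and 54 counts in H1 to H3, 2, 1 and 0 in M1 to M3 and 0 in the L libraries. Xcl1, a chemokine of T and NK cells, held 16, 17 and 17 counts in H1 to H3 and 0 in the other 6 libraries. Ccl22, which attracts regulatory T cells, held 89, 74 and 89 counts in H1 to H3, 3, 0 and 2 in M1 to M3 and 4, 9 and 0 in L1 to L3. Other genes of the same lists had other orders. Ccl17, which attracts T cells, held 15, 17 and 10 counts in H1 to H3, 24, 21 and 11 in M1 to M3 and 27, 20 and 56 in L1 to L3. Ccl19 and Ccl21a, ligands of CCR7, held 0 counts in the H libraries and at most 1 in any library.

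Of the 15 immediate early and dissociation-associated genes, all differed at least 2-fold, beside 26.4% of all genes. L1 to L3 were the 3 lowest libraries for 12 of them, beside 13.6% of all genes and 5 of the 7 members. H1 to H3 were the 3 highest for 4 and M1 to M3 for 5, beside 12.7% and 4.72% of all genes. Fos measured 949.9, 929 and 947 CPM in H1 to H3, 1430, 1555 and 1103 CPM in M1 to M3 and 123, 37.8 and 15.4 CPM in L1 to L3. Zfp36, which destabilises cytokine transcripts, measured 842, 780 and 817 CPM in H1 to H3, 720, 874 and 474 CPM in M1 to M3 and 3.36, 13.3 and 0.986 CPM in L1 to L3. The relation of tissue dissociation to the chemokine values was not tested.

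The summed level of the 7 members fell into 3 separate clusters that followed the letters. It was 2110, 1875 and 1982 CPM in H1 to H3, 463, 487 and 371 CPM in M1 to M3 and 8.34, 6.64 and 1.73 CPM in L1 to L3. Most of the sum in the H and M libraries was Ccl3 and Ccl4. Not every member followed it, as M and L libraries overlapped for Ccl5 and Cxcl9 and Cxcr3 was highest in the M libraries.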
